A study of Mus musculus with 16 samples.

Results

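The genes described here are 10 markers of endoplasmic reticulum (ER) stress and of the unfolded protein response, out of 13577 genes measured above the filter in regenerating mouse liver. They are Hspa5, Pdia4, Dnajb9, Herpud1, Derl3, Xbp1, Atf4, Ddit3, Trib3 and Asns. Members were chosen by symbol. A probe set (the group of probes that reads 1 transcript) counted where it was annotated to 1 of these symbols alone, and the probe set with the highest mean over the 16 arrays stood for its gene. All 10 genes passed the filter, which asked for a signal above the array's own median on at least 4 of 16 arrays.

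Liver RNA was read on 16 expression arrays. Each of 4 arms had a single array at day 0, 2, 7 and 14 of regeneration after partial hepatectomy, the surgical removal of part of the liver. The arms were MET_KO_canertinib, MET_FLOX_canertinib, MET_KO and MET_FLOX. All 16 samples carried the same genotype label, Metff/ff:ERCre+/+, on a 129SV/C57BL/6 background. In the MET_KO arms exon 16 of Met, the receptor of hepatocyte growth factor, was deleted with a tamoxifen-inducible recombinase, and the design calls the inhibition systemic rather than confined to hepatocytes. In the canertinib arms the drug, an inhibitor of the EGFR family of receptors, was given in the diet with an aim of 80 mg/kg. The sources used here do not state the animals' age, nor whether an array held RNA of 1 animal or of a pool. The p-values below therefore measure the spread between single arrays after arm and day were fitted.

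The unfolded protein response is set off when proteins misfold in the ER, and it runs through 3 sensors, IRE1, PERK and ATF6. IRE1 splices the Xbp1 transcript, PERK slows translation and favours that of ATF4, and ATF6 is cut to release a transcription factor. The factors raise ER chaperones, the machinery that removes misfolded proteins, and, through ATF4 and CHOP (the product of Ddit3), genes of amino acid supply and cell death. Hepatocytes secrete most plasma proteins and hold a large ER, and the response is known there from secretory load and from drug injury.

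Arrays fell into 2 sets by their median signal. The 10 arrays of the higher set had medians of 244 to 265 and comprised all 8 canertinib arrays with MET_KO and MET_FLOX at day 14. The 6 arrays of the lower set, MET_KO and MET_FLOX at days 0, 2 and 7, had medians of 156.4 to 188.7. Canertinib and array set therefore cannot be told apart at days 0, 2 and 7. The ratio of the 3′ to the 5′ probe set of Gapdh, a measure of RNA integrity, was 0.95 to 2.24 on canertinib arrays and 0.765 to 0.869 without canertinib. At day 14, where all arrays were of the higher set, it was 1.13 and 2.24 with canertinib, against 0.81 and 0.81 without. Canertinib and this ratio therefore went together at day 14 too. The 6 hepatocyte markers were above the median on all 16 arrays. The 2 probe sets of Met gave 982 to 2066 and 98.0 to 624 in the knockout arms, against 1041 to 2014 and 97.8 to 700 in the flox arms. These ranges overlapped. No source used here places the probes relative to exon 16, so Met gives no check of the labels.

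Promoters of 4 of the genes are shown because they hold letters that the factors of the response are known to bind. Sequences come from RefSeq on GRCm38.p6, with 250 bases before the start searched and 50 after it, and all 10 genes had a window. Motifs were searched on both strands. They were the ER stress response element ERSE (CCAAT and CCACG parted by 9 bases), ERSE-II (ATTGG and CCACG parted by 1 base), the UPRE core (TGACGTGG) bound by XBP1 and ATF6, and the CARE core (TGATGNAA) of ATF4 targets. Each line gives 100 bases on the gene's strand with the matched letters in capitals.
Hspa5, chr2:34771990-34772089, plus strand, ERSE: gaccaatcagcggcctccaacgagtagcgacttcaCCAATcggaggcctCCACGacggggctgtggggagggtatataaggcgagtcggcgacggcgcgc
Herpud1, chr8:94386303-94386402, plus strand, CARE core on the other strand, then ERSE-II: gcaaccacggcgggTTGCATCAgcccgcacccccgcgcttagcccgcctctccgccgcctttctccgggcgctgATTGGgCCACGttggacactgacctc
Derl3, chr10:75893202-75893301, plus strand, ERSE on the other strand: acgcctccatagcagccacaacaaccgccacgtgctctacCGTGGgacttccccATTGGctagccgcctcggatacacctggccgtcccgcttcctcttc
Asns, chr6:7693210-7693309, minus strand, CARE core: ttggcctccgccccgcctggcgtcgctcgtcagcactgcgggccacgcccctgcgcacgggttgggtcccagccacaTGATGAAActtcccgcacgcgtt

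Positions count bases from the start, negative before it. The ERSE of Hspa5 lay at -65 to -47 and that of Derl3 at -156 to -138. ERSE was found in 39 of 32851 promoter windows, or 0.119%. The ERSE-II of Herpud1 lay at -52 to -42, and 0.0365% of windows held that motif. The CARE core, present in 3.97% of windows, was found in Asns, in Herpud1 and, after the start, in Trib3. The UPRE core, present in 0.676% of windows, was found in none of the 10 windows. Pdia4, Dnajb9, Xbp1, Atf4 and Ddit3 had none of the 4 motifs in these windows.

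**Figure D1:**
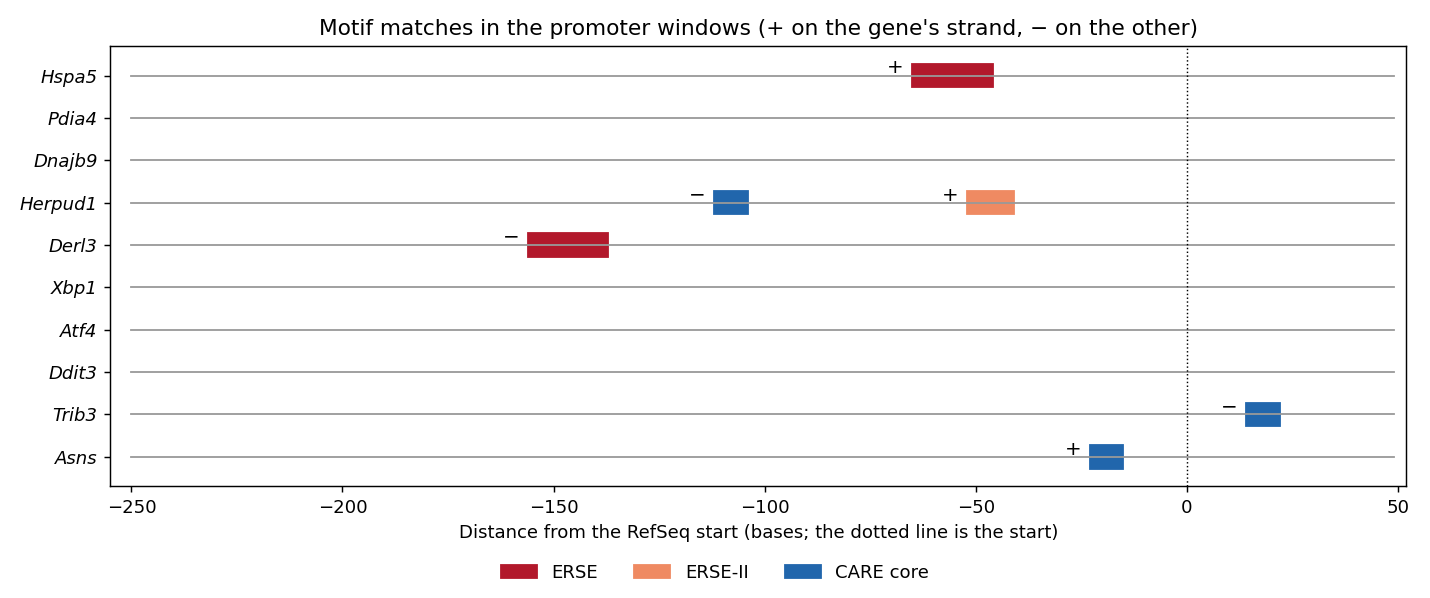
Motif matches in the promoter windows of the 10 genes, where the horizontal axis is the distance in bases from the RefSeq start (dotted line), each grey line is 1 window, boxes are matches coloured by motif, and + or − gives the strand relative to the gene. The boxes of Hspa5, Herpud1, Derl3 and Asns lie before the start and that of Trib3 after it.

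The first question was where each gene stood in the 4 arms over time. Values are signal intensities on a linear scale, given at days 0, 2, 7 and 14 in that order, and levels of different genes are not compared because each probe set binds with its own efficiency.

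Derl3 encodes a derlin, a membrane protein that helps move misfolded proteins out of the ER. Its signals were 436, 482, 416 and 682 in MET_KO_canertinib and 1066, 435, 616 and 651 in MET_FLOX_canertinib, against 664, 378, 879 and 522 in MET_KO and 272, 93.2, 223 and 452 in MET_FLOX. MET_FLOX had the lowest signal of the 4 arms at every day, with its lowest point at day 2. The other arms overlapped one another. The MET_FLOX signal of day 2 was below its array's median of 168.8. Those of days 0 and 7 were close to the medians of their arrays, 188.7 and 174.7. Derl3 was read by 1 probe set, so no other could be set beside it.

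Hspa5 encodes BiP, the main ER chaperone of the HSP70 family and the usual marker of the response. It gave 9247, 13493, 10033 and 27875 in MET_KO_canertinib and 12907, 13229, 20195 and 13018 in MET_FLOX_canertinib, against 16156, 14220, 17222 and 9158 in MET_KO and 12301, 13154, 20582 and 9403 in MET_FLOX. In MET_FLOX_canertinib, MET_KO and MET_FLOX the highest of the 4 days was day 7, and day 14 was below it. In MET_KO_canertinib the order differed: day 7 was near day 0, and day 14 was the highest value of all 16 arrays.

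Xbp1, whose spliced form encodes the transcription factor of the IRE1 branch, had 9672, 13311, 8923 and 24513 in MET_KO_canertinib and 17574, 12066, 11038 and 15114 in MET_FLOX_canertinib. It had 14551, 10014, 15160 and 12590 in MET_KO and 10347, 7733, 11378 and 9061 in MET_FLOX. The day 14 array of MET_KO_canertinib again stood highest. The probe sets are annotated to the gene and not to its spliced form, so splicing by IRE1 was not measured.

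Pdia4 encodes a protein disulfide isomerase, which forms and rearranges disulfide bonds in the ER. It gave 396, 1023, 555 and 1356 in MET_KO_canertinib and 670, 484, 829 and 877 in MET_FLOX_canertinib, against 967, 869, 835 and 698 in MET_KO and 468, 592, 1195 and 81.1 in MET_FLOX. The last value, MET_FLOX at day 14, was the lowest of the 16 and the only 1 below its array's median. The other Pdia4 probe set gave 530 on that array and did not follow the chosen one over the 16 arrays (Pearson's r = -0.20, across arrays that share arms, days and array sets).

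Dnajb9, an HSP40 co-chaperone of BiP, ranged from 2686 in MET_FLOX_canertinib at day 14 to 7774 in MET_KO_canertinib at day 14. Its other 14 values lay between these, with no arm apart. Herpud1, a membrane protein of the ER degradation complex, ranged from 3597 in MET_KO at day 14 to 14436 in MET_FLOX_canertinib at day 7. That highest array stood apart on both Herpud1 probe sets, the other giving 11753 there and at most 7518 elsewhere.

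Atf4, the transcription factor of the PERK branch, had 1438, 3416, 2378 and 4054 in MET_KO_canertinib and 3593, 3514, 2452 and 3650 in MET_FLOX_canertinib, against 3886, 4221, 3750 and 3536 in MET_KO and 3370, 2455, 2958 and 2285 in MET_FLOX. The lowest value was MET_KO_canertinib at day 0. The second Atf4 probe set was instead lowest in MET_KO at day 14, at 810, and followed the chosen one little (r = 0.17). ATF4 is regulated mainly in translation, which these arrays do not read.

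Ddit3 encodes CHOP, a factor induced late in ER stress. Its signals were 244, 374, 444 and 223 in MET_KO_canertinib and 235, 388, 590 and 392 in MET_FLOX_canertinib, against 290, 384, 577 and 216 in MET_KO and 383, 207, 453 and 104 in MET_FLOX. Day 7 was the highest of the 4 days in each of the 4 arms. The other Ddit3 probe set was dimmer, 24.4 to 249, and was not highest at day 7 in every arm (r = -0.10 with the chosen one).

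Trib3, a pseudokinase induced by ATF4 and CHOP, gave 670, 609, 411 and 499 in MET_KO_canertinib and 372, 476, 273 and 353 in MET_FLOX_canertinib, against 355, 221, 358 and 658 in MET_KO and 547, 210, 199 and 509 in MET_FLOX. At day 2 both canertinib arrays lay above both arrays without the drug. At day 14 they lay below both. The other Trib3 probe set showed neither order and did not follow the chosen one closely (r = 0.26). It gave 108 and 149 with canertinib at day 2, against 205 and 95.5 without. Its day 14 signals were 195 and 313 with canertinib, against 413 and 266 without.

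Asns encodes asparagine synthetase, a target of ATF4 in amino acid shortage as well as in ER stress. It had 992, 3636, 3607 and 4090 in MET_KO_canertinib and 2375, 2207, 2289 and 3206 in MET_FLOX_canertinib, against 2604, 2183, 2662 and 3022 in MET_KO and 1099, 3160, 3187 and 2566 in MET_FLOX. MET_KO_canertinib and MET_FLOX were low at day 0 and high from day 2 on, whereas MET_FLOX_canertinib and MET_KO varied little up to day 7. The second Asns probe set followed the first over the 16 arrays (r = 0.90).

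**Figure D2:**
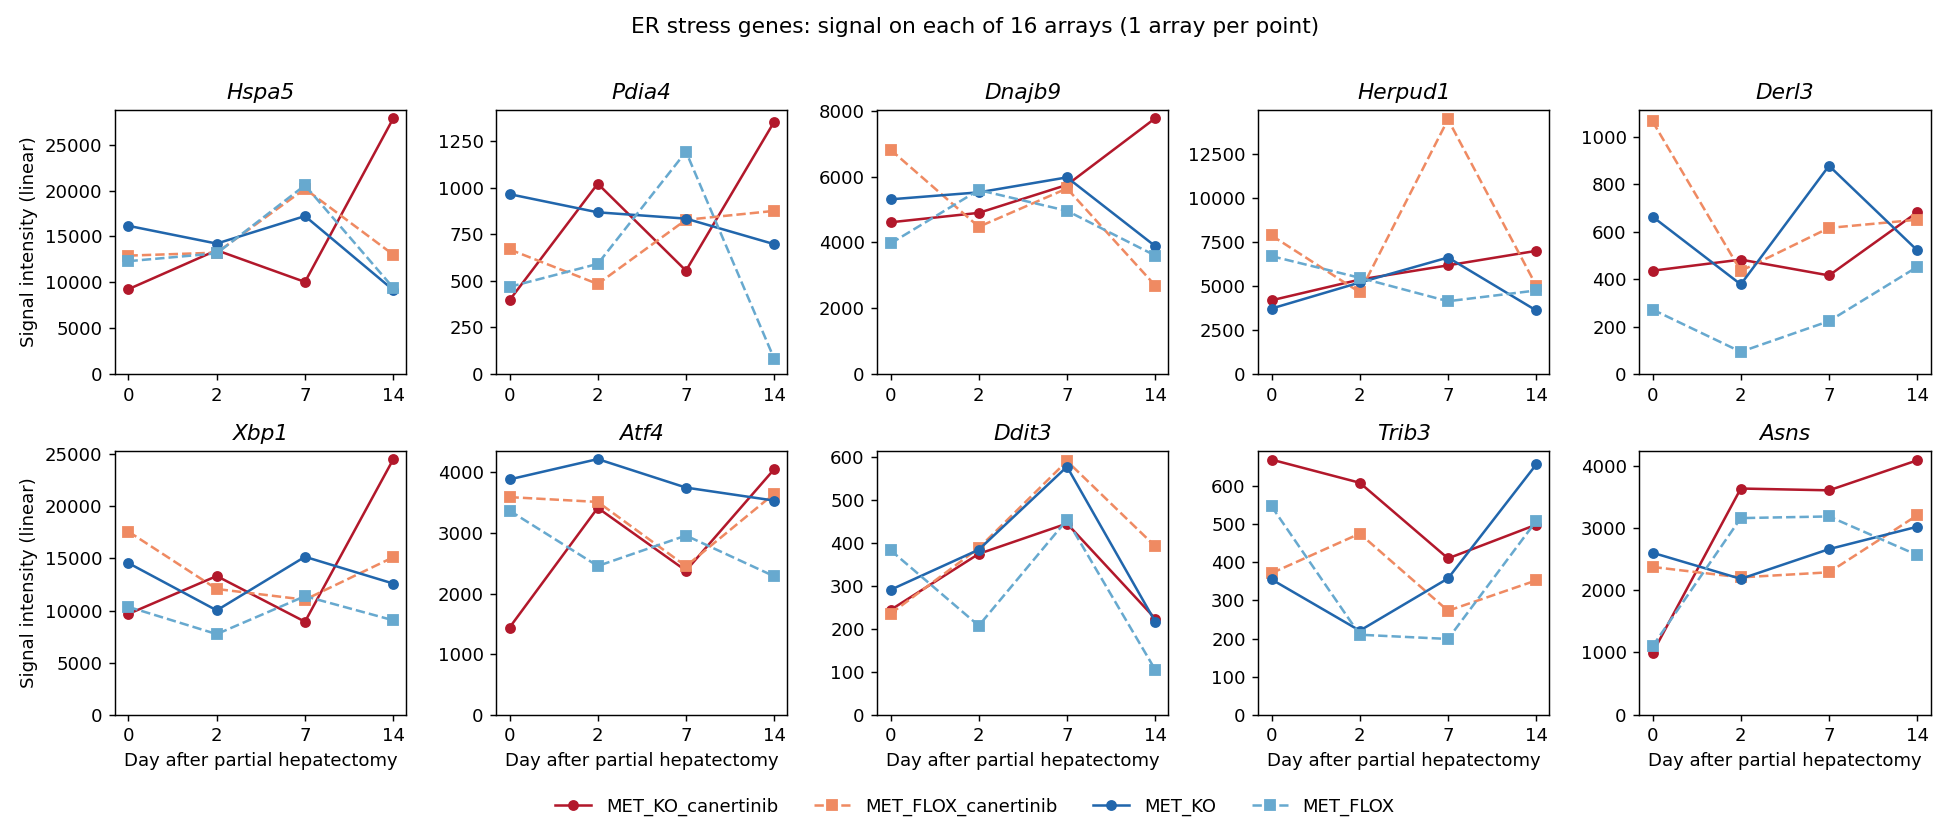
Signal intensity (linear, vertical axes starting at 0) of the 10 genes against day after partial hepatectomy, where each point is 1 array, red and orange are the canertinib arms and the blues the arms without the drug. Hspa5, Pdia4, Dnajb9, Xbp1 and Asns peak in MET_KO_canertinib at day 14, and Derl3 is lowest in MET_FLOX at each day.

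The comparison of the 8 arrays with canertinib and the 8 without asked how EGFR family inhibition moved these genes. Derl3 rose and the other 9 did not pass the test. The mean Derl3 signal was 504 ± 122 in MET_KO_canertinib and 692 ± 267 in MET_FLOX_canertinib, against 610 ± 214 in MET_KO and 260 ± 148 in MET_FLOX (SD over the 4 days, n = 4 each). The log2 difference was 0.62 ± 0.22 (SE), with an adjusted p of 0.0455 in the limma model of arm and day. Here 1 of 10 genes was called and 1 of 10 was called higher, where 34.6% of all 13577 genes were called and 24% were called higher. The median difference was 0.24 for the 10 genes and 0.14 for all genes, so relative to all genes Derl3 differed by 0.48. Centring turned 8 of the 9 differences above 0 to below 0, all but that of Derl3. The call was lost after centring each array on its median (0.24, adjusted p = 0.40), after quantile normalization (0.41, adjusted p = 0.177), with no filter (adjusted p = 0.054) and without the variance trend (adjusted p = 0.053). With 1 array left out at a time it held for 5 of 16 arrays, namely MET_KO_canertinib at day 0 or 7, MET_FLOX_canertinib at day 14, MET_KO at day 7 and MET_FLOX at day 14, over differences of 0.49 to 0.76.

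Derl3 is known to be abundant in secretory cells such as plasma cells and pancreatic acinar cells. The 5 plasma cell and B cell markers summed to 3192 to 22973 on canertinib arrays, against 1262 to 4864 without the drug, and 4 of 5 were called higher. The 7 acinar markers summed to 2818 to 4626, against 1249 to 3861, and 2 of the 4 that passed the filter were called higher. These sums followed array set, with 1249 to 1913 in the lower set and 2818 to 4626 in the higher. At day 14 they were 3626 and 3540 with canertinib, against 3861 and 3647 without. On canertinib arrays 3 to 5 of the 7 were above the array's median, and without the drug 2 to 4 were. Hepatocyte markers had 4 of 6 called higher and neutrophil markers 5 of 6, and Kupffer cell markers had 0 of 6 called. Of all genes 24% were called higher and 34.6% were called in either direction. No marker of these lists was called with array set as a term. In bulk RNA, more cells of a type cannot be told apart from more RNA per cell, and the part of these cells in the Derl3 result was not tested.

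With array set as a term the canertinib difference of each gene equals that of the 4 day 14 arrays, and no gene of the 10 was called by limma, although 4 had an unadjusted p under 0.05. Those 4 were Pdia4 with a log2 difference of 2.07 (adjusted p = 0.183), Hspa5 with 1.04 (adjusted p = 0.272), Xbp1 with 0.85 (adjusted p = 0.316) and Ddit3 with 0.90 (adjusted p = 0.342). Derl3 differed by 0.44 ± 0.45 (SE; adjusted p = 0.753). Without the MET_KO_canertinib array of day 14 the values in that model were 1.72 for Pdia4, 0.24 for Hspa5, 0.33 for Xbp1 and 1.22 for Ddit3. Pdia4 and Ddit3 both had the lowest of their 16 signals in MET_FLOX at day 14. The other Pdia4 probe set gave 568 and 561 with canertinib at day 14, against 644 and 530 without. The Pdia4 difference therefore rests on the chosen probe set.

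By genotype, the Derl3 difference lay between the flox arms. MET_FLOX_canertinib minus MET_FLOX was 1.47 ± 0.32 (SE) on the log2 scale, with an adjusted p of 0.0292 in limma, and MET_FLOX_canertinib was higher at 4 of 4 days. The call was lost with array set as a term (1.29, adjusted p = 0.383) and on leaving out any 1 of the 6 arrays of this pair at days 0, 2 and 7, and it held without each of the other 10 arrays. In that pair 1 of 10 genes was called, and it was higher, where 6.79% of all genes were called and 4.09% were called higher. MET_KO_canertinib minus MET_KO was -0.23 ± 0.32 for Derl3, higher at 2 of 4 days, and none of the 10 genes was called or had an unadjusted p under 0.05, where 8.34% of all genes were called. After centring, Atf4 was called by limma in this pair on its chosen probe set (-0.96, adjusted p = 0.0419), against -0.55 as deposited (adjusted p = 0.163). The second Atf4 probe set did not follow it closely (r = 0.17). As deposited it gave 1180, 1366, 1299 and 4157 in MET_KO_canertinib, against 3429, 939, 2002 and 810 in MET_KO. It was thus lower with the drug at days 0 and 7 and higher at days 2 and 14. The test of the difference between the pairs, the interaction of genotype and canertinib, gave Derl3 -1.70 ± 0.45 with an adjusted p of 0.606, so that the pairs were not shown to differ. Atf4 was the other gene with an unadjusted p under 0.05 in the interaction, at -0.80 ± 0.37 (adjusted p = 1), and it was -0.46 without MET_KO_canertinib at day 0 and -0.25 with the mean over its probe sets. Of all genes 0.0147% were called there.

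**Figure D3:**
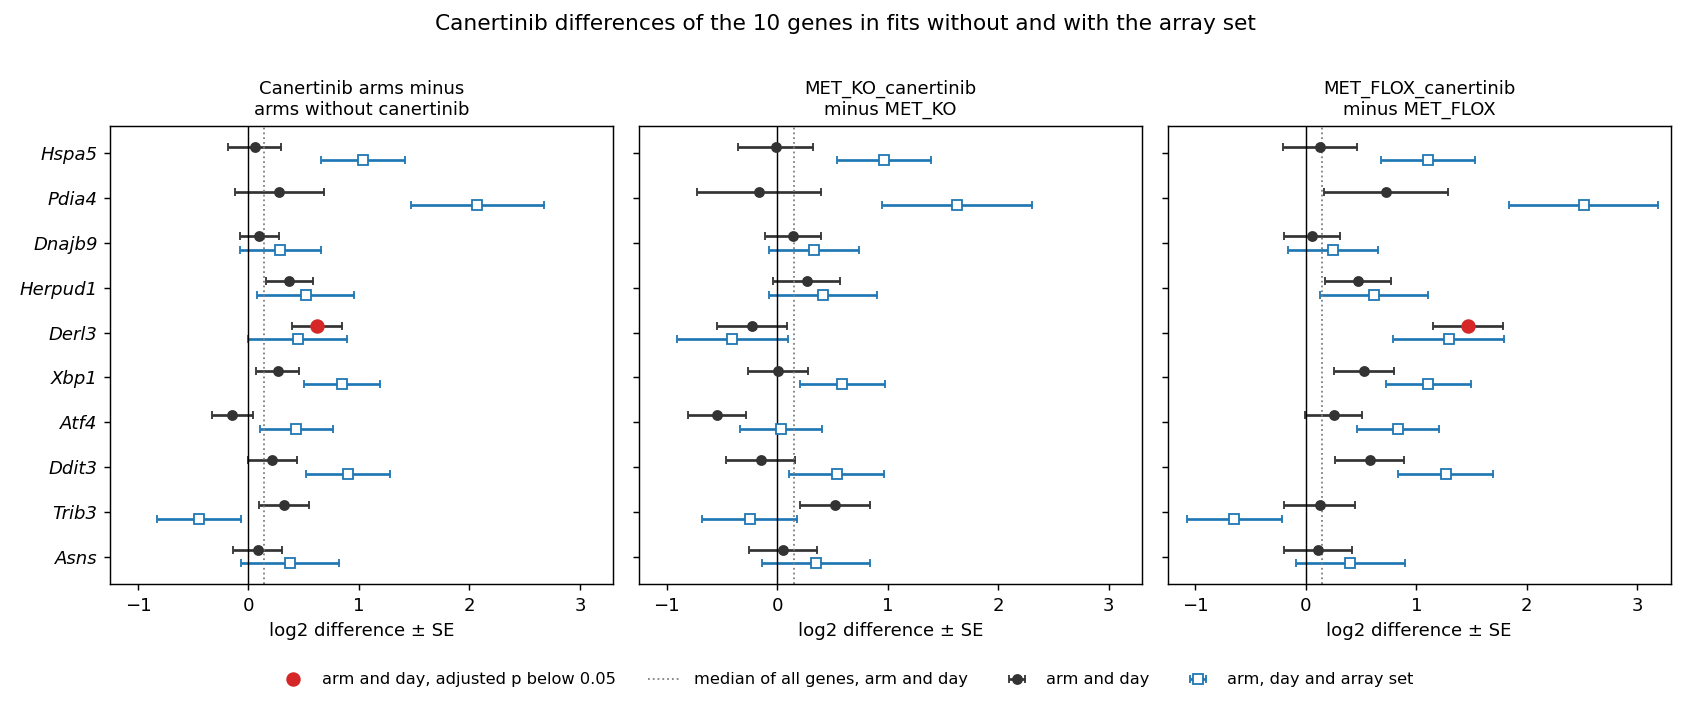
Log2 differences of the 10 genes (horizontal axes, bars are the SE from limma) for both canertinib arms together and for each genotype, where filled circles are the model of arm and day, red where the adjusted p was below 0.05, open squares add array set, and the dotted line is the median of all genes. Derl3 alone is red, for both arms together and for the flox arms, and Pdia4 and Hspa5 lie further right with array set in the model.

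For the double blockade, MET_KO_canertinib minus MET_FLOX, none of the 10 genes passed the test, where 2.91% of all genes did. Derl3 had the smallest p, with a log2 difference of 1.07 ± 0.32 (SE) and an adjusted p of 0.0704, and it was the 1 gene of the 10 with an unadjusted p under 0.05. MET_KO_canertinib was higher than MET_FLOX at 4 of 4 days. Without MET_FLOX at day 14 the difference was 1.35 and Derl3 was called (adjusted p = 0.0431). This comparison shares the MET_FLOX arrays with that of MET_FLOX_canertinib. Trib3 differed by 0.68 ± 0.32 (adjusted p = 0.182), which turned to -0.09 with array set as a term. In that model 0 of the 10 genes were called by limma and 4 others had an unadjusted p under 0.05. These were Pdia4 at 2.61 (adjusted p = 0.153), Xbp1 at 1.03, Hspa5 at 1.02 and Ddit3 at 0.97. Derl3 was at 0.89 there (adjusted p = 0.536). The Pdia4 value is that of the chosen probe set, which the other probe set did not follow (r = -0.20).

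The knockout arms did not differ from the flox arms by the test in any of the 10 genes, and 0% of all 13577 genes were called by limma, with 323 genes at an unadjusted p under 0.05 and none of the 10 among them. Differences ran from -0.26 ± 0.21 (SE) for Herpud1 to 0.54 ± 0.40 for Pdia4. Derl3 differed by 0.45 ± 0.22, and here the array sets went different ways. In the lower set, which holds MET_KO and MET_FLOX at days 0, 2 and 7, it was 1.67 higher in the knockout and higher in 3 of 3 pairs of arrays of the same day. In the higher set it was -0.28, and higher in 3 of 5 pairs. On the chosen probe set Trib3 was higher in the knockout in 5 of 5 pairs of the higher set, by a mean of 0.51. In the lower set it was higher in 2 of 3 pairs, by 0.09. The other Trib3 probe set (r = 0.26 with the chosen one) was lower in MET_KO_canertinib than in MET_FLOX_canertinib at each day. It gave 201, 108, 147 and 195, against 297, 149, 290 and 313. At day 14 without the drug it gave 413 in MET_KO, against 266 in MET_FLOX.

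Across the days none of the 10 genes was called by limma, where 0.412% of all genes were called at day 2 against day 0, 0.00737% at day 7 and 0.081% at day 14. Asns had an unadjusted p under 0.05 at all 3 days. Its log2 differences were 0.75 ± 0.31 (SE) at day 2, 0.84 ± 0.31 at day 7 and 0.97 ± 0.31 at day 14, with adjusted p of 0.384, 0.984 and 0.185. Without MET_KO_canertinib at day 0 the Asns differences were 0.40, 0.48 and 0.62, so this array moved each of them by over 1.5 times. Ddit3 differed by 0.82 ± 0.31 at day 7 (adjusted p = 0.986) and Derl3 by -0.83 ± 0.32 at day 2 (adjusted p = 0.352). Hspa5 differed by 0.10 to 0.40 over the 3 days, with an SE of 0.34. With array set as a term its day 14 difference was 0.75 (adjusted p = 0.403), against 0.10, and that of Asns was 1.17.

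The MET_KO_canertinib array of day 14 held the highest of the 16 values for 5 of the 10 genes, where 14.7% of all genes had their highest value there. Those genes were Hspa5, Pdia4, Dnajb9, Xbp1 and Asns. This is 1 array against 3, so the values below are a description without a test. Set against the mean of the other 3 arrays of day 14, the log2 difference was 1.79 for Pdia4, 1.42 for Hspa5, 1.21 for Dnajb9 and 1.03 for Xbp1. It was 0.66 for Herpud1, 0.48 for Asns, 0.39 for Atf4, 0.34 for Derl3, 0.09 for Ddit3 and 0.02 for Trib3. Without MET_FLOX at day 14, where Pdia4 and Ddit3 had their lowest signals, the values were 0.78 for Pdia4 and -0.36 for Ddit3, against 1.35 for Hspa5, 1.26 for Dnajb9 and 0.83 for Xbp1. In all, 4 of 10 genes were at least 1 log2 unit above that mean, where 6.5% of all genes were, and 8 of 10 were above each of the other 3 arrays, where 31.7% of all genes were. The median was 0.57 for the 10 genes and 0.04 for all genes.

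Other probe sets read the same genes on the same array again, so their counts are a description and not independent support. Of the 21 probe sets that passed the filter, 16 were highest of the 4 day 14 arrays in MET_KO_canertinib. For 11 of the 21 that array was highest of all 16. The 21 include the 10 chosen probe sets, which gave 8 and 5 of these counts. The same shares over all probe sets were not computed. The second Hspa5 probe set gave 14332 there, against 4284 in MET_FLOX_canertinib, 5444 in MET_KO and 4616 in MET_FLOX at day 14. At days 0, 2 and 7, where canertinib and array set coincide, it gave 4018 to 6655 with canertinib, against 6893 to 11166 without. With the mean over its probe sets the Hspa5 canertinib difference was -0.17, against 0.06 for the chosen one. The second Xbp1 probe set gave 19357 there and 20090 in MET_FLOX_canertinib at day 0. The second Atf4 probe set stood further above the other day 14 arrays than the chosen one. It gave 4157 there, against 2116.5 in MET_FLOX_canertinib, 810 in MET_KO and 1299 in MET_FLOX. The second Pdia4 probe set gave 568, against 561 in MET_FLOX_canertinib, 644 in MET_KO and 530 in MET_FLOX at day 14, so the Pdia4 difference depended on the probe set. With each array centred on its median, 1 of the 10 genes was highest of 16 there in place of 5, whereas after quantile normalization 6 were. Under both scalings 3 in place of 4 were at least 1 log2 unit above the mean. The shares of all genes given above hold for the deposited scale alone. The counts under the other scalings therefore have no background beside them. Without MET_FLOX at day 14 the count at 1 log2 unit was 2.

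The same array stood apart in markers of blood cells. The sum of the 7 neutrophil markers was 45324 there, against 4770 to 6396 on the other 3 arrays of day 14, and that of the 5 plasma cell and B cell markers was 22973, against 3980 to 6053. S100a8 alone gave 22731, and all 7 neutrophil markers were above the other 3 arrays. Of the plasma cell and B cell sum, Ighm, the heavy chain of IgM, made up 18225, and Jchain, a chain of secreted antibodies, gave 2125. The B cell marker Cd79a gave 530, against 341 to 488, and Ms4a1 gave 902, the lowest of the 4 arrays, against 932 to 1021. Plasma cells also express Xbp1 and Hspa5, and the part of these cells in the values of this array was not tested. The 6 hepatocyte markers summed to 351910 there, against 323436 to 477122, and the Gapdh ratio was 1.13, against 0.81 to 2.24.

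**Figure D4:**
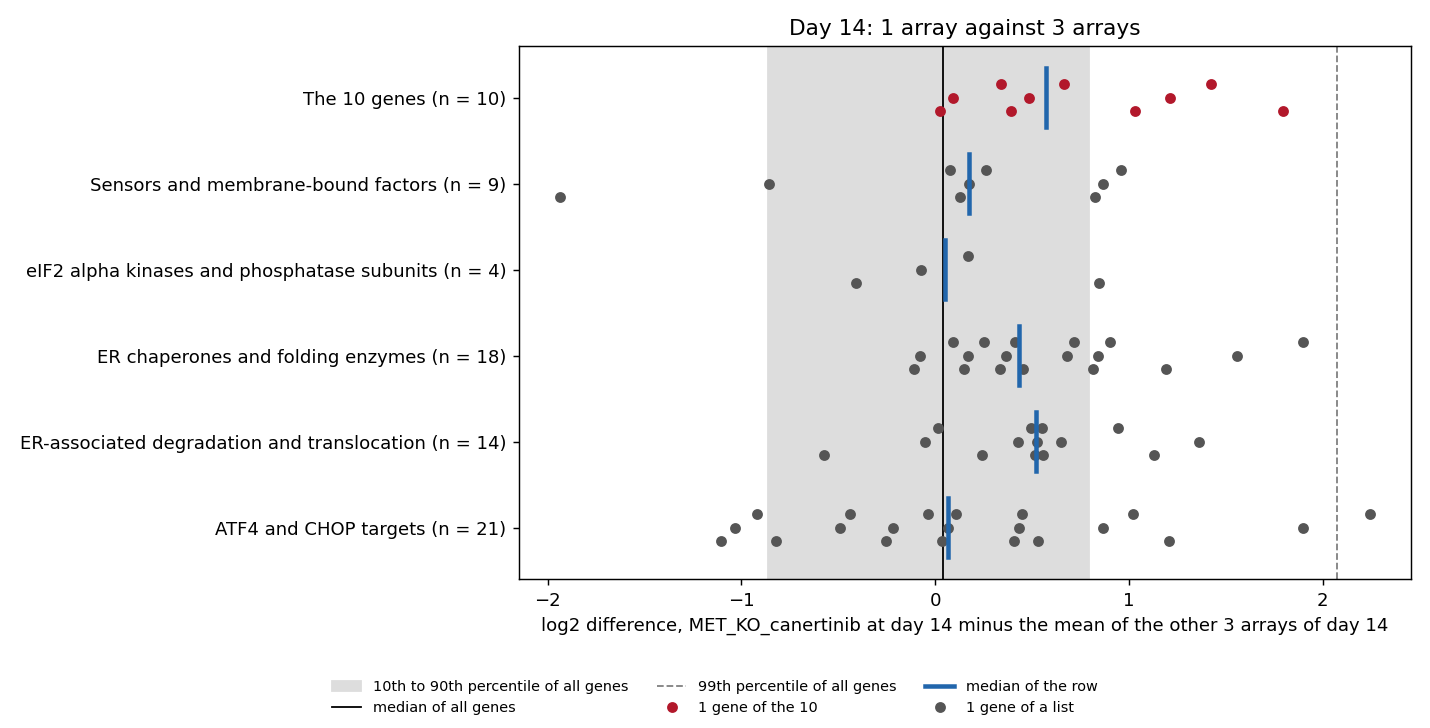
Log2 difference between the MET_KO_canertinib array of day 14 and the mean of the other 3 arrays of day 14 (horizontal axis) for the 10 genes and for 5 lists of the pathway, where each point is a gene, blue bars are medians, the grey band runs from the 10th to the 90th percentile of all genes and the dashed line is their 99th percentile. Pdia4, Hspa5, Dnajb9 and Xbp1 lie beyond the band, and the lists of chaperones and of ER-associated degradation have medians of 0.43 and 0.52.

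The rest of the pathway was read from 5 lists with 66 measured genes, none of them among the 10. Beside 2 genes of smallest p per list and comparison, the other called genes are named, chosen after their values were seen. Scaling moved the median of all genes in the canertinib comparison, which was 0.14 as deposited, 0.06 after quantile normalization and -0.24 after centring. Of all 13577 genes, 4702 were called as deposited, 2906 after quantile normalization and 5046 after centring, in either direction. List values and counts are read against these. In the list of sensors and membrane-bound factors, 0 of 9 genes passed the canertinib comparison in limma, 1 had an unadjusted p under 0.05, and 4 were called lower after centring. Its smallest p belonged to Creb3l2, a relative of ATF6, at 0.38 ± 0.15 (SE; adjusted p = 0.0629), and Atf6b followed at -0.66 ± 0.32 (adjusted p = 0.112). In MET_KO_canertinib minus MET_FLOX the list had 0 calls, and its genes of smallest p were Creb3l2 at 0.50 and Creb3l1 at 0.59 (adjusted p = 0.157 and 0.367). Of the 4 genes for eIF2 alpha kinases and phosphatase subunits, Eif2ak2 rose with canertinib by 0.53 ± 0.16 (adjusted p = 0.025), a call lost after centring (0.15) and after quantile normalization (0.21). It encodes PKR, a kinase activated by double-stranded RNA rather than by ER stress. Ppp1r15b, a phosphatase subunit that reverses eIF2 alpha phosphorylation, differed by -0.19 ± 0.12 (adjusted p = 0.216).

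Of 18 ER chaperones and folding enzymes, 4 fell and 0 rose with canertinib, so that 22.2% of the list was called lower, where 10.6% of all genes were called lower. The list's median was -0.26, against 0.14 over all genes. It was -0.64 after centring, with 11 called lower, and -0.06 after quantile normalization, with 1 called lower, and it turned to 0.33 with array set as a term. On the log2 scale Txndc5, a disulfide isomerase, fell by 0.60 with an SE of 0.13 (adjusted p = 0.00511). Calnexin, Canx, a chaperone of glycoproteins, fell by 0.63 (SE 0.14, adjusted p = 0.00571). Canx had 7016 to 9615 on the 8 canertinib arrays. Without canertinib it had 12918 to 16411 on the 6 arrays of days 0, 2 and 7, and 7503 and 8295 on the 2 arrays of day 14. The drug and no-drug arrays overlapped at day 14 alone. The other 2 called genes were Hsp90b1 at -0.71 (adjusted p = 0.0458) and Dnajc3 at -0.38 (adjusted p = 0.0388). All 4 were called lower after centring too, and Canx alone after quantile normalization.

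Of 14 genes of ER-associated degradation and translocation, 3 fell and 1 rose, or 28.6% of the list, where 34.6% of all genes were called, with a median of -0.06. The median was -0.44 after centring, with 6 called lower and 0 higher, but 0.16 after quantile normalization, with 0 called lower and 4 higher, and 0.35 with array set as a term. Derl2, a derlin like Derl3, fell by 0.48 (SE 0.10, adjusted p = 0.00458), whereas Derl3 was higher. Vcp, the ATPase that pulls proteins from the ER membrane, fell by 0.40 (SE 0.11, adjusted p = 0.0125), and Derl1 fell by 0.48 (adjusted p = 0.0433). Os9, a lectin that picks out misfolded glycoproteins, rose by 0.37 (adjusted p = 0.0296), which turned to -0.01 after centring. Derl2, Vcp and Derl1 were called lower after centring and were not called after quantile normalization.

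Of 21 ATF4 and CHOP targets, 4 rose and 1 fell, or 23.8% of the list, where 34.6% of all genes were called and 24% were called higher, with a median of 0.16. After centring the median was -0.22, with 2 called higher and 7 lower, and after quantile normalization it was 0.14, with 4 called higher and 1 lower. Chac1, Slc7a11 and Cth kept their call and direction under both scalings. Chac1, which breaks down glutathione, rose by 0.88 ± 0.18 (SE; adjusted p = 0.00407) and had 698 to 1645 on canertinib arrays, against 267 to 932 without the drug. Slc7a11, the cystine transporter, rose by 1.17 ± 0.25 (adjusted p = 0.0049), and its 8 canertinib signals of 221 to 413 lay above the 8 others, 46.8 to 193. Wars, a tRNA synthetase, rose by 0.55 (adjusted p = 0.00948) and Sesn2, a stress-induced regulator of mTORC1, by 0.60 (adjusted p = 0.0275). Cth, an enzyme of cysteine synthesis, fell by 1.08 (adjusted p = 0.00784). Chac1 was the 1 gene of this list called in MET_KO_canertinib minus MET_FLOX, at 1.06 ± 0.25 (adjusted p = 0.0413), where 2.91% of all genes were called. With array set as a term it was 0.70 (adjusted p = 0.505) and not called. With array set as a term 0 genes of the 5 lists were called in the canertinib comparison by limma, where 15 of all genes were.

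At day 14 the MET_KO_canertinib array was above each of the other 3 arrays for 13 of 18 chaperones, 9 of 14 genes of degradation and translocation, 5 of 9 sensors, 7 of 21 targets and 1 of 4 of the eIF2 alpha list, where 31.7% of all genes were. Medians were 0.43, 0.52, 0.17, 0.07 and 0.05 against 0.04 for all genes. Genes at least 1 log2 unit up, as 6.5% of all genes were and which were named after their values were seen, were the chaperones Creld2 at 1.90, Manf at 1.56 and Hsp90b1 at 1.19. In the degradation list they were Edem2 at 1.36 and Syvn1 at 1.13, and among the targets Ddit4 at 2.24, Atf3 at 1.90, Cebpb at 1.20 and Slc7a11 at 1.02. Manf, a secreted ER stress protein, gave 7250 there, against 2770 in MET_FLOX_canertinib, 2338 in MET_KO and 2282 in MET_FLOX. Ern1, which encodes IRE1 alpha, was lowest of the 4 arrays there, with 460, against 2479 in MET_FLOX_canertinib, 1962 in MET_KO and 1218 in MET_FLOX.

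The 10 genes did not vary as a block. Over the 16 arrays their 45 pairs had a median Pearson's r of 0.23 on the log2 scale, with a range of -0.46 to 0.71. Derl3 with Xbp1 (r = 0.71) and Hspa5 with Pdia4 (r = 0.67) were the closest pairs, and Hspa5 with Trib3 was the farthest apart. Without the MET_KO_canertinib array of day 14 these values were 0.78, 0.63 and -0.70. Hspa5 with Xbp1 had r = 0.58, and 0.31 without it. The arrays share arms, days and array sets, so these are descriptions without a p.

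Among all 13577 genes, those whose pattern was most like that of Hspa5 over 16 arrays were Arl1 (r = 0.87), Syvn1 (0.86), Pcx (0.85), Creld2 (0.83) and Grn (0.83). Syvn1, the ubiquitin ligase of ER-associated degradation, and Creld2 are also in the lists above. For Ddit3 they were Tmem234 (0.85), Antkmt (0.82), Tfr2 (0.81), Fam114a2 (0.81) and Tiprl (0.80). For Asns they were Ints2 (0.81), Irf2bp2 (0.80), Slc7a2 (0.79), Rnf11 (0.78) and Mitf (0.78). None of the ATF4 and CHOP targets was among the 5 nearest to Ddit3 or Asns.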

How the data were processed

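The deposited values were MAS5 signal intensities, per the submitters' processing notes, 1 column per array, and the sources used here give no version. Total RNA, 6 ug per array, was extracted with Trizol per the labels' protocols. After trimming 2% at each end, the mean intensity was 500 on every array, so the authors had scaled the arrays alike. Of 45101 probe sets, 34945 were annotated to 1 gene, 932 to several and 9160 to none, and 64 were controls. log2(signal + 16) was fitted with limma 3.58.1 in R 4.3.3 with terms for arm and day (9 residual degrees of freedom) and a variance trend. A fold change on this scale understates the change of dim genes. Genes were called at a Benjamini-Hochberg adjusted p below 0.05 over 13577 genes. The code was checked on simulated data.

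The 10 genes, the pathway and marker lists, the array sets and the tests were chosen with earlier results of these data known. Named from the lists were the 2 genes of smallest p in the canertinib comparison and in MET_KO_canertinib minus MET_FLOX, and other called genes, chosen after their values were seen. For likeness, the 5 genes of highest r were named for Hspa5, Ddit3 and Asns. Of 72 pathway genes 66 were measured. Kupffer cell marker sums were 9594 to 48593 on canertinib arrays and 8706 to 32556 without. Alternatives were other pseudocounts (1 and 64), array centring, quantile normalization, no filter, the mean over probe sets, array set as a term, no variance trend and leaving out each array, and, chosen after seeing the data, the lists under other scalings and the day 14 array under each setting. The number of arrays limits the precision.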

Additional observations from a re-analysis of the deposited data

How the results depend on the processing

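The number of the 10 genes called with canertinib was 1 as reported (Derl3) and 0 with each array centred on its median, with no filter on dim probe sets, with array set as a term and without the variance trend. It ranged from 0 to 1 when 1 array was left out. Quantile normalization also gave 1, but the gene was Herpud1 (0.64, adjusted p = 0.0468). Derl3 itself was 0.24 after centring, 0.41 after quantile normalization and 0.13 with array set as a term and without MET_KO_canertinib at day 14, and was called in none of these. MET_FLOX_canertinib minus MET_FLOX gave 0 calls with array set as a term (Derl3 1.29, adjusted p = 0.383), and 0 to 1 when 1 array was left out, with Derl3 at 1.22 to 1.75. MET_KO_canertinib minus MET_KO gave 1 call by limma after centring (Atf4 on its chosen probe set, -0.96, adjusted p = 0.0419). MET_KO_canertinib minus MET_FLOX gave 0 to 1 over arrays left out. Centring moved the median of all genes in the canertinib comparison to -0.24, against 0.14 as deposited, and turned 8 of the 10 genes below 0, among them Xbp1 to -0.12, Hspa5 to -0.32, Pdia4 to -0.10 and Ddit3 to -0.17. Xbp1 was also reversed at day 7 alone, at -0.40, and the Derl3 knockout difference was reversed within the higher array set, at -0.28. In MET_KO_canertinib at day 14 the count of genes with their highest value of 16 arrays was 5 as deposited, 1 after centring and 6 after quantile normalization. The share of all genes highest there was computed for the deposited scale alone. The count at 1 log2 unit was 2 to 4 over arrays left out. The causes were not tested.

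Over all genes the canertinib comparison called 4702 as deposited, 5046 after centring, 2906 after quantile normalization and 15 with array set as a term. MET_KO_canertinib minus MET_KO called 1132, against 2295 after centring, 257 after quantile normalization and 11 with array set. MET_FLOX_canertinib minus MET_FLOX called 922, against 1535, 405 and 9, and MET_KO_canertinib minus MET_FLOX called 395, against 1186, 36 and 5. The last also gave 244 with no filter. Day 14 against day 0 gave 11 as deposited, 69 after centring, 23 with array set, 7 with the mean over probe sets, 5 with no filter, and 1 both after quantile normalization and without the trend. Without the trend, day 2 gave 29, against 56 with it, and the interaction gave 0, against 2. The mean over probe sets gave 1 for the interaction and 0 for day 7, against 2 and 1. No paired analysis was possible because the labels give no replicate numbers, apart from the day, which the model already fits as a term. Ddit3 was above its array's median on 11 of 16 arrays, the fewest among the 10 chosen probe sets, and no detection calls were used here.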
